A study of Mus musculus with 8 samples.

Results

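Transcripts of 9 mouse genes for linker histones and for core histone variants made outside S phase were measured in pools of 2-cell embryos with and without Dux. The 9 genes are H1foo, H1f0, H2afz, H2afv, H2afx, H2afy, H2afj, H3f3a and H3f3b. They were chosen by symbol from the 13101 genes of the deposited gene table, and all 9 were found there. RNA-seq had been made from 8 pools of 12 to 18 embryos each, collected after timed matings on the C57BL/6 background. The genotype was wild type (WT) in 4 pools and Dux KO, a knockout of Dux, in 4. The product of Dux, a homeobox protein, turns on a set of genes at the 2-cell stage. The labels name polyadenylated RNA as the starting material and do not give the cross or the parents of each pool, so the p-values refer to the spread among pools, part of which may be technical.

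Nucleosomes wrap DNA around core histones, and a linker histone binds where the DNA enters and leaves. Most core histone genes are expressed with DNA replication from mRNAs that end in a stem-loop, whereas the variants described here mostly come from polyadenylated mRNAs and can be placed in chromatin at any time of the cell cycle. In the mouse egg and early embryo, the oocyte linker histone encoded by H1foo covers the genome before somatic linker histones return. Histone H3.3, encoded by both H3f3a and H3f3b, is placed on the paternal genome soon after fertilization.

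The 8 libraries held 12343369 to 14548526 gene reads, recovered from the deposited values. All 9 oocyte and early embryo markers and all 10 markers of the 2-cell stage checked were in the gene table. Of 10 cumulus and granulosa cell markers 5 were in it, summing to 1.55 to 11.8 FPKM in WT pools and to 6.97 to 34.8 FPKM in Dux KO pools, and Fshr, Amh, Foxl2, Has2 and Ptx3 were not. Of 5 oviduct markers only Ovgp1 was in it (1.74 to 11.5 FPKM in WT, 3.07 to 22 FPKM in Dux KO), and none of 6 blood and 5 sperm markers was. FPKM are fragment counts scaled by exon length and library size. As a check of the genotype, the Dux-responsive retrovirus MERVL-int was at 11360 to 16381 FPM (fragments scaled per library) in WT and 4548 to 6050 FPM in Dux KO. The 10 markers of the 2-cell stage did not separate the genotypes by their sum. It was 195.1 to 338.7 FPKM in WT pools and 225.5 to 352.8 FPKM in Dux KO pools. Single genes of this list were not examined here, so the sum does not tell whether any of them changed. Dux itself was not analysed here, since 0 rows carried its symbol.

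Whether a gene's reads are its own depends on how far its sequence is shared, and the paired genes are shown here for that reason. H3f3a and H3f3b encode the same protein, but their coding sequences of 411 bases differed at 95 bases, 81 of them at the last position of a codon. The longest stretch that both share was 23 bases. H2afz and H2afv encode nearly the same H2A.Z protein, and their coding sequences of 387 bases differed at 81 bases, with a longest shared stretch of 14 bases. The first 120 coding bases are given 5′ to 3′ from GENCODE M21 transcripts (GRCm38), with capitals where the members of a pair differ. H3f3a runs from its start codon on the minus strand at chr1:180811807-180811926, and H3f3b on the minus strand at chr11:116023890-116024009. H2afz runs on the plus strand over 3 exon parts within chr3:137864694-137865558, and H2afv on the minus strand over 3 exon parts within chr11:6433799-6444339.
H3f3a: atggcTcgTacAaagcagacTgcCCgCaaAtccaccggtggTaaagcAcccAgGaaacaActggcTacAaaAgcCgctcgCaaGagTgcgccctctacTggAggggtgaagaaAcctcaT
H3f3b: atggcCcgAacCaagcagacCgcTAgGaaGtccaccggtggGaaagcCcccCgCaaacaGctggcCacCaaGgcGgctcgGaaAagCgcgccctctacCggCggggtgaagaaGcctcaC
H2afz: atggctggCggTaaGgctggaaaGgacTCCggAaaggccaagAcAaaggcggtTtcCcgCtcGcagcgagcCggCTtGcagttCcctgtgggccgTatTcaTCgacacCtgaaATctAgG
H2afv: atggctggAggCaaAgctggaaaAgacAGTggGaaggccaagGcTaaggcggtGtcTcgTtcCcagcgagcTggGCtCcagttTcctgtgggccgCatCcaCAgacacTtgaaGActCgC
The differences are spread along the stretch, so that a fragment of either gene holds bases the other lacks.

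Copies elsewhere in the genome were a larger source of shared sequence than the partner gene. Of all stretches of 50 bases in the H2afz transcript, 69.6% also occurred in transcripts of 6 other genes, 4 of them pseudogenes. The 2 of these 6 genes that were in the gene table held all of the shared stretches. For H3f3a the share was 30.3%, spread over 41 other genes of which 38 were pseudogenes. Only 5.23% of its stretches were shared with genes in the gene table. The whole share is given for the other members. That share was 8.40% for H3f3b, and 0% for H1foo and H2afv. H2afx and H2afj shared 9.66% and 7.18%, among others with replication-dependent H2A genes. H1f0 and H2afy shared 5.68% and 8.76% with an antisense gene at their own place, and without a stated strand setting such reads cannot be told apart. How reads with several positions were counted is not given in the sources used here, so levels of H2afz and H3f3a may be too low or too high.

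No member was called changed between the genotypes. Of the 9 genes, 8 had a mean of at least 0.5 FPKM and were tested, and the Dux KO pools gave 0 higher and 0 lower members (limma on log2(FPKM + 1) over 12434 genes, Benjamini-Hochberg adjusted p under 0.05). Over all genes tested 33.6% were called. Among the 8 members 3 had an unadjusted p under 0.05, namely H1foo, H1f0 and H2afj, against 46.5% of all genes. On recovered reads edgeR called none of the 9, and DESeq2 called H2afj lower. In the authors' deposited table the adjusted p of the 9 genes ran from 0.0617 (H2afj) to 0.804 (H2afv). The median difference of the 8 members was -0.02 on the log2 scale, as for all genes (-0.02), and the median size of the difference was 0.23, against 0.38 over all genes. The 4 and 4 values did not overlap for 2 of the 8 members, H1f0 and H2afj, while 33.1% of all genes tested had groups that did not overlap. A difference of at least 2-fold on this scale was found for 0 members and for 7.3% of all genes.

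**Figure D1:**
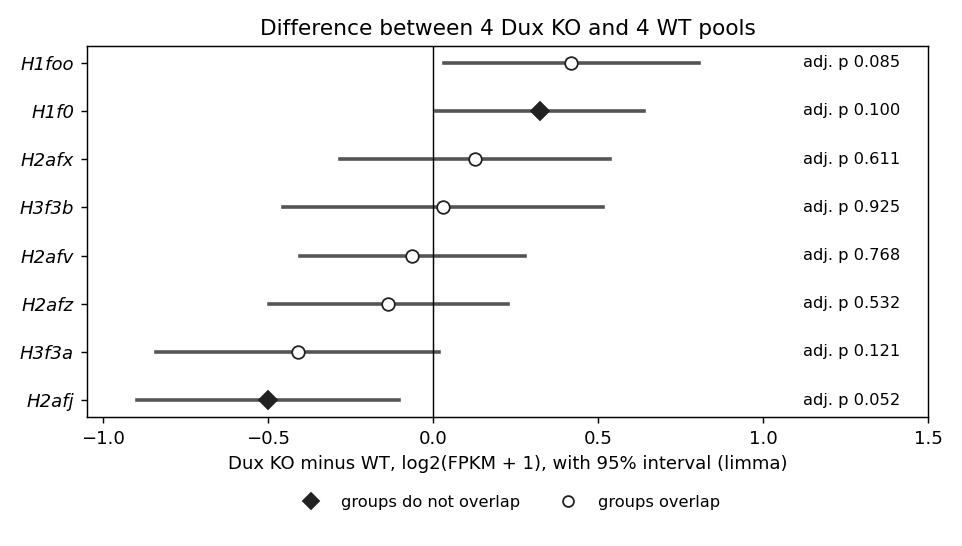
Difference between 4 Dux KO and 4 WT pools for the 8 members tested, as Dux KO minus WT in log2(FPKM + 1), with the 95% interval and adjusted p of limma. H1foo (0.42) and H1f0 (0.32) lie on the higher side and H2afj (-0.50) and H3f3a (-0.41) on the lower side, with no adjusted p under 0.05; filled diamonds mark genes whose groups do not overlap.

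H1foo is the linker histone of the oocyte and early embryo (chromosome 6, 115944938 to 115950236, plus strand, GRCm38). Its level was 30.4, 34.5, 30.1 and 28.1 FPKM in WT replicates 1 to 4, and 49.8, 51.3, 35.8 and 32.0 FPKM in Dux KO replicates 1 to 4. Dux KO replicates 1 and 2 stood above every WT pool by a wide margin, and replicate 4 stood below WT replicate 2, so that the groups overlapped. The means were 30.8 ± 2.69 and 42.2 ± 9.77 FPKM (SD, n = 4), a difference of 0.42 on the log2 scale (95% interval 0.03 to 0.81, limma adjusted p = 0.0847). The value rested on which Dux KO pools entered. It was 0.14 without replicates 1 and 2 (limma adjusted p = 0.608) and 0.70 without replicates 3 and 4 (limma adjusted p = 0.0162).

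Single oocyte and early embryo markers went both ways. Of the 9, 3 were called higher in Dux KO (Oosp1, Bmp15 and Zar1), 2 lower (Zp3 and Padi6) and 4 not at all, by the same limma fit. Their sum was higher in every Dux KO pool than in any WT pool, whereas the values of H1foo overlapped. The sum was between 1205 and 1799 FPKM in WT, compared with 2608, 4721, 2339 and 1852 FPKM in Dux KO replicates 1 to 4. Oosp1, an oocyte-secreted protein gene, made up most of that sum (4008 FPKM in Dux KO replicate 2), and without it the sums of the genotypes overlapped (476.9 to 535.1 FPKM in WT, 484.2 to 712.5 FPKM in Dux KO). Zp3, a zona pellucida gene of the same list, went the other way, with 170.0 to 217 FPKM in WT pools against 63.5 to 110.4 FPKM in Dux KO pools. The part of these markers in the H1foo result was not tested. In pooled embryos, fewer cells of a kind and less RNA per cell cannot be told apart.

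H1f0 encodes the somatic replacement linker histone H1.0, known from cells that stop dividing (chromosome 15, 79028450 to 79030504, plus strand, GRCm38, a gene without introns). It was at 11.7, 10.6, 12.5 and 9.65 FPKM in WT replicates 1 to 4, while Dux KO replicates 1 to 4 held 14.4, 15.3, 12.9 and 13.97 FPKM. Every Dux KO pool lay above every WT pool, by a margin as small as that between 12.5 and 12.9 FPKM. The means were 11.1 ± 1.25 and 14.2 ± 1.00 FPKM (SD, n = 4), a log2 difference of 0.32 (95% interval 0.01 to 0.64) that did not pass (limma adjusted p = 0.09995). Behind these values stood 261 to 496 reads per pool.

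Of the H2A variants, H2afj came closest to the threshold. It encodes H2A.J, a variant close to canonical H2A in sequence (chromosome 6, 136808244 to 136810074, plus strand, GRCm38). WT replicates 1 to 4 held 29.4, 37.9, 29.6 and 30.1 FPKM, and Dux KO replicates 1 to 4 held 22.1, 15.8, 27.3 and 24.6 FPKM. All Dux KO pools were below all WT pools, and the lowest was replicate 2. The means were 31.7 ± 4.12 and 22.4 ± 4.90 FPKM (SD, n = 4), a log2 difference of -0.50 (95% interval -0.90 to -0.10, limma adjusted p = 0.0518). It was called when the minimum mean was raised to 5 FPKM (adjusted p = 0.0417), without Dux KO replicate 3 (adjusted p = 0.0378) and by DESeq2 on recovered reads (adjusted p = 0.0486). Without Dux KO replicates 1 and 2 the difference was -0.28 (limma adjusted p = 0.324).

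H2afv encodes H2A.Z.2, of the variant found around transcription start sites, and was the most abundant member (chromosome 11, 6427229 to 6444443, minus strand, GRCm38). Its level was 277, 256, 361 and 258 FPKM in WT replicates 1 to 4 and 296, 248, 261 and 289.6 FPKM in Dux KO replicates 1 to 4. WT replicate 3 stood high, and the other 7 pools lay close together across both genotypes. The log2 difference was -0.06 (95% interval -0.40 to 0.28, limma adjusted p = 0.768), from means of 288 ± 49.6 and 274 ± 22.7 FPKM (SD, n = 4). It was 0.05 without WT replicate 3.

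H2afz, which encodes H2A.Z.1, was far less abundant in these embryos by the deposited values (chromosome 3, 137864487 to 137866922, plus strand, GRCm38). WT replicates 1 to 4 held 19.8, 20.8, 20.7 and 16.5 FPKM, and Dux KO replicates 1 to 4 held 17.3, 13.9, 17.7 and 21.98 FPKM. The groups overlapped, with both the lowest and the highest value in Dux KO pools. The difference was -0.14 (95% interval -0.50 to 0.23, limma adjusted p = 0.532).

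H2afx encodes H2A.X, which is phosphorylated at DNA breaks (chromosome 9, 44334694 to 44336077, plus strand, GRCm38). It was at 9.70, 14.8, 14.6 and 12.1 FPKM in WT replicates 1 to 4, while Dux KO replicates 1 to 4 held 17.3, 10.8, 15.3 and 12.9 FPKM. The groups overlapped widely, and with 165 to 347 reads per pool it was the least deeply counted of the members tested. The log2 difference was 0.13 (95% interval -0.28 to 0.54, limma adjusted p = 0.611).

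H2afy encodes macroH2A1, a variant with a large extra domain that is known to be scarce in early embryos (chromosome 13, 56073619 to 56136361, minus strand, GRCm38). It did not pass the minimum of 0.5 FPKM and was not tested in the same way as the others. WT replicates 1 to 4 held 38, 36, 17 and 19 reads (0.454, 0.381, 0.207 and 0.212 FPKM), and Dux KO replicates 1 to 4 held 33, 82, 33 and 51 reads (0.334, 0.766, 0.327 and 0.538 FPKM). The highest values were in Dux KO replicates 2 and 4, and the groups overlapped. On recovered reads the log2 fold change was 0.67 by edgeR (adjusted p = 0.238). FPKM divide by the length of all annotated exons together, 6809 bases for H2afy against 2046 bases in its main coding transcript, which lowers its FPKM relative to a count per transcript.

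**Figure D2:**
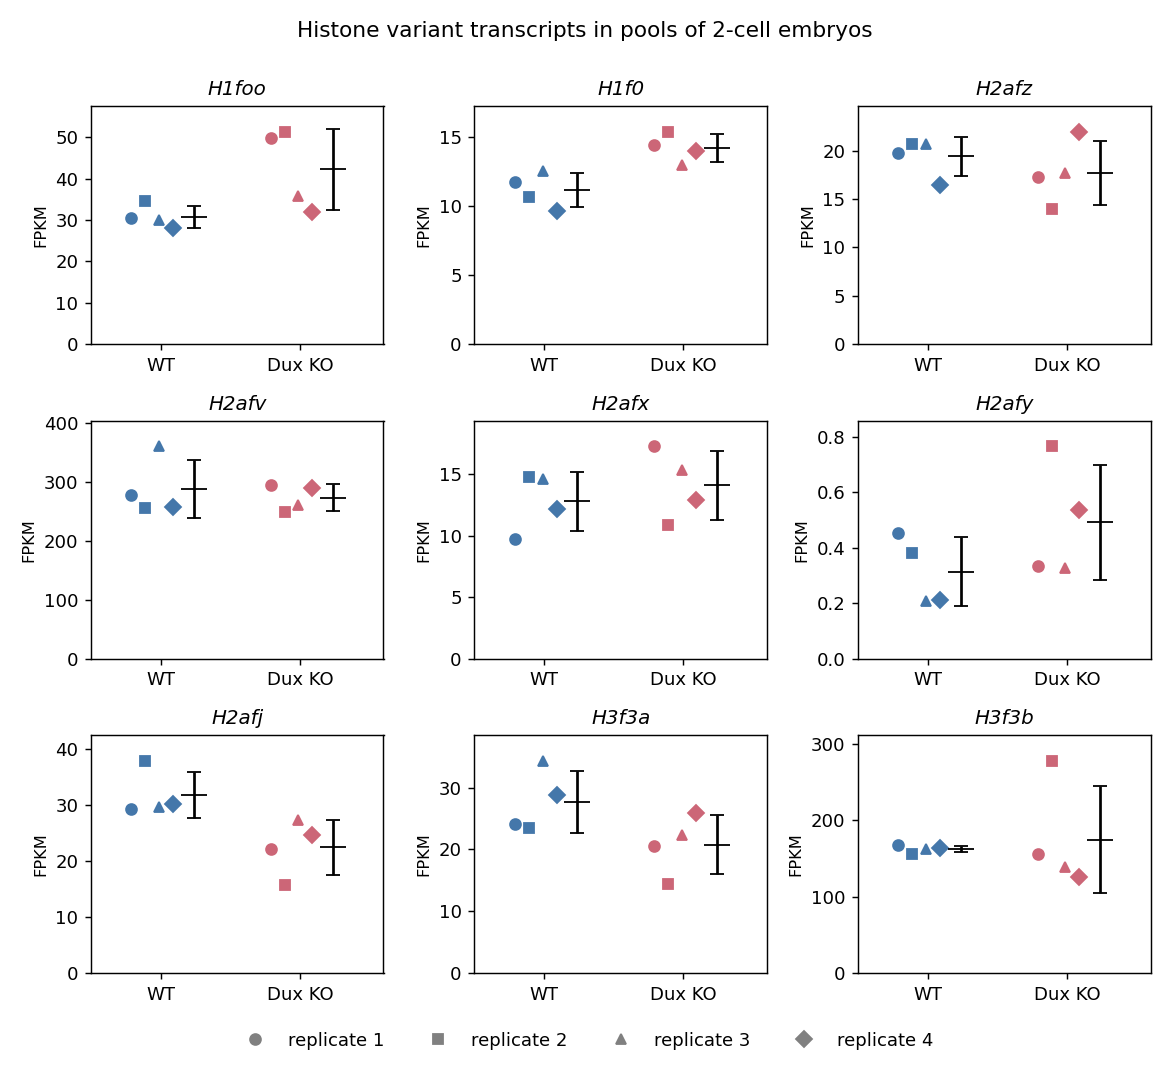
FPKM of the 9 genes in each of 8 pools, with WT in blue and Dux KO in red, marker shapes for replicates 1 to 4, and the mean and SD of each group in black on linear axes from 0. Groups separate for H1f0 and H2afj and overlap for the other 7 genes, and H3f3b shows 1 high pool, Dux KO replicate 2 at 278 FPKM.

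The H3.3 genes differed in how even they were. H3f3b (chromosome 11, 116021912 to 116027962, minus strand, GRCm38) was at 167, 156, 162 and 163 FPKM in WT replicates 1 to 4, a coefficient of variation of 2.68%. In Dux KO replicates 1 to 4 it was at 155, 278, 138 and 125 FPKM, a coefficient of variation of 40.2%. Replicate 2 was far above every WT pool, and the other 3 Dux KO pools were all below every WT pool. The log2 difference was 0.03 (95% interval -0.46 to 0.51, limma adjusted p = 0.925), and without Dux KO replicate 2 it was -0.22 (limma adjusted p = 0.208).

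H3f3a (chromosome 1, 180800832 to 180813943, minus strand, GRCm38) was at 24.1, 23.5, 34.3 and 28.9 FPKM in WT replicates 1 to 4, while Dux KO replicates 1 to 4 held 20.6, 14.4, 22.3 and 25.8 FPKM. Dux KO replicate 4 lay within the WT range, and the other 3 Dux KO pools lay below it. The means were 27.7 ± 5.03 and 20.8 ± 4.78 FPKM (SD, n = 4), a log2 difference of -0.41 (95% interval -0.84 to 0.02, limma adjusted p = 0.121). Without Dux KO replicate 2 the difference was -0.25 (limma adjusted p = 0.285).

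Ratios between paired genes were taken within each pool, and 3 such ratios were compared. H3f3b made up 87.4, 86.9, 82.6 and 84.9% of the summed FPKM of both H3.3 genes in WT replicates 1 to 4, and 88.3, 95.1, 86.1 and 82.9% in Dux KO replicates 1 to 4. Dux KO replicate 2 alone stood outside the range of 82.6 to 88.3% held by the other 7 pools. The log2 ratio of H3f3b over H3f3a was 2.52 ± 0.24 in WT and 2.96 ± 0.85 in Dux KO (SD, n = 4; exact permutation p = 0.429, two-sided, adjusted over 3 ratios 0.571). The difference between these means was 0.44, and 0.03 without Dux KO replicate 2. The summed H3.3 level was 190 ± 7.18 FPKM in WT pools against 195 ± 65.5 FPKM in Dux KO pools (SD, n = 4).

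H2afv made up 93.6 ± 0.895% of the H2A.Z sum in WT and 93.9 ± 0.803% in Dux KO (SD, n = 4). Every one of the 8 pools was between 92.5 and 94.7%, the narrowest range of the 3 shares in percent. A share so close to the whole moves little when the ratio moves. The log2 ratio of H2afv over H2afz had an SD of 0.21 in WT and 0.19 in Dux KO. For H1f0 over H1foo the SD was 0.18 and 0.27. The log2 ratio of H2afv over H2afz differed by 0.07 (exact permutation p = 0.571, two-sided, adjusted over 3 ratios 0.571). H2afz is also the member with the most sequence shared with other genes, and its FPKM divide by merged exons longer than its main transcript. The height of this share is therefore uncertain.

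H1f0 made up 26.6 ± 2.57% of the summed FPKM of both linker histone genes in WT and 25.6 ± 3.69% in Dux KO (SD, n = 4). The log2 ratio of H1f0 over H1foo was -1.39 ± 0.18 and -1.48 ± 0.27, and did not differ beyond the spread (exact permutation p = 0.543, two-sided, adjusted over 3 ratios 0.571). Their sum was 42.1, 45.2, 42.6 and 37.8 FPKM in WT replicates 1 to 4 and 64.2, 66.7, 48.7 and 45.9 FPKM in Dux KO replicates 1 to 4. The 2 groups of sums lay side by side without overlap, though WT replicate 2 and Dux KO replicate 4 were close, and the sum was not tested. With 4 against 4 pools the smallest p of each permutation test is 0.0286.

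**Figure D3:**
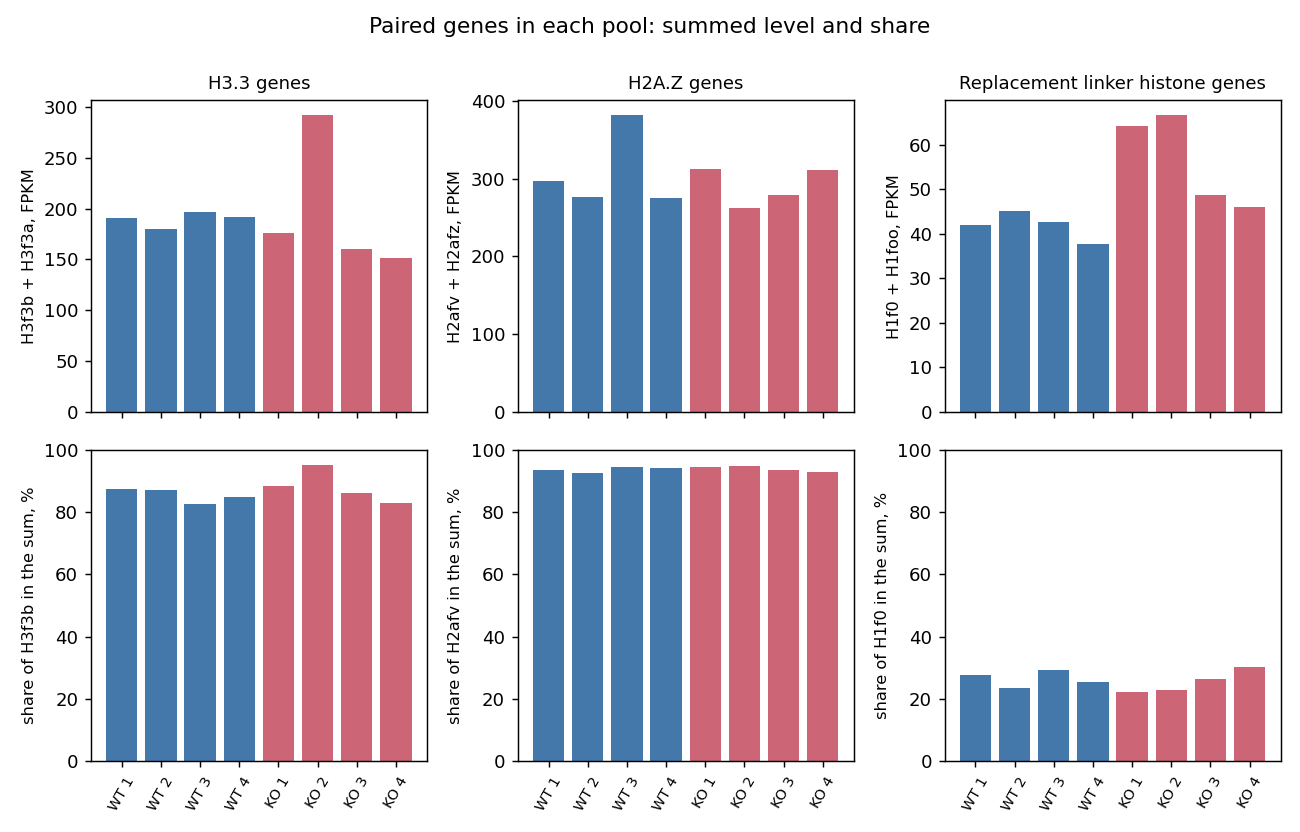
Summed FPKM of the H3.3, H2A.Z and replacement linker histone genes (top) and share of the first gene in each sum in percent (bottom), 1 bar per pool with WT in blue and Dux KO in red. The H3.3 sum peaks in Dux KO replicate 2, where the share of H3f3b is 95.1%, and the share of H2afv stays between 92.5 and 94.7% in all 8 pools.

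Dux KO replicate 2 held the highest or the lowest of the 8 values for 8 of the 9 members. H1foo, H1f0, H2afy and H3f3b were highest there, and H2afz, H2afv, H2afj and H3f3a were lowest. H2afx was the exception, with its lowest value in WT replicate 1 and its highest in Dux KO replicate 1. Among the 8 members tested this made 7, and over all genes tested the same library held an extreme for 50.5%. WT replicates 1 to 4 held an extreme for 1, 1, 3 and 2 of the 9 members and for 14.5, 21.9, 29.7 and 35.4% of all genes. Dux KO replicates 1, 3 and 4 held one for 1, 0 and 2 members and for 15.6, 9.72 and 22.7% of all genes. The deviation of Dux KO replicate 2 from the mean of the 8 pools ran from -0.70 (H2afj) to 0.76 (H3f3b) on the log2(FPKM + 1) scale.

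That library also held the most gene reads (14548526) and the highest summed levels of the oocyte, 2-cell, cumulus and oviduct marker lists (4721, 353, 34.8 and 22 FPKM). The part of these in its histone values was not tested. Without it, 0 members were called, and the differences of H1foo and H2afj were 0.32 and -0.35, against 0.42 and -0.50 with all 8 pools.

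**Figure D4:**
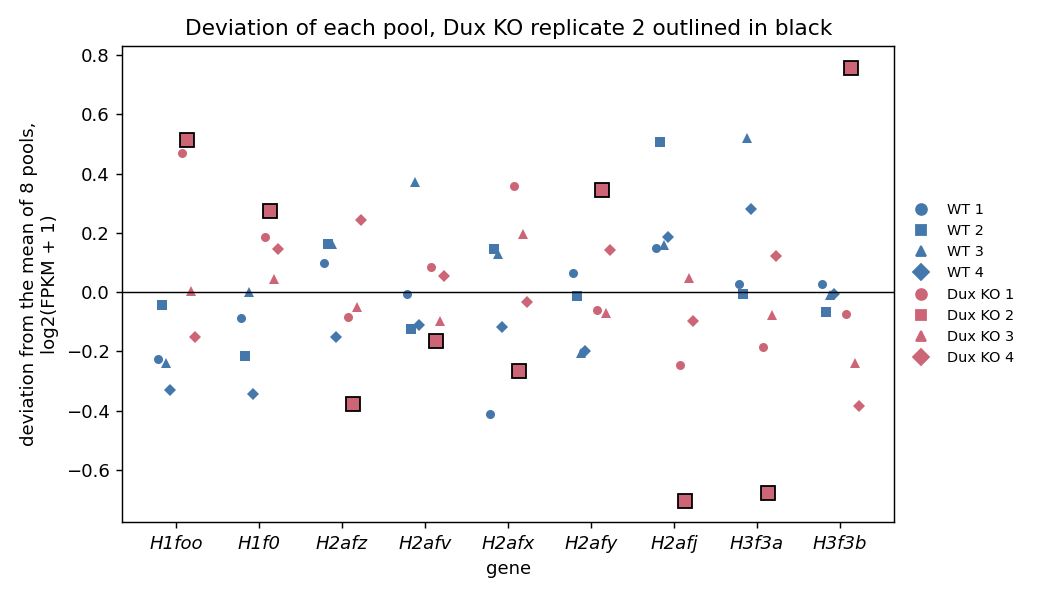
Deviation of each pool from the mean of the 8 pools in log2(FPKM + 1) for each of the 9 genes, with WT in blue, Dux KO in red and Dux KO replicate 2 outlined in black. The outlined pool is the highest or lowest point for every gene but H2afx, from -0.70 for H2afj to 0.76 for H3f3b.

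The order of mean levels was similar in both genotypes, apart from the places of H1foo, H1f0 and H2afx. In WT, H2afv (288 FPKM) and H3f3b (162 FPKM) stood apart from the rest and from each other, above 98.8 and 97.7% of the genes tested by their mean over all 8 pools. H2afj (31.7 FPKM), H1foo (30.8 FPKM) and H3f3a (27.7 FPKM) followed, and their ranges overlapped as neighbours. H2afz (19.4 FPKM) came next, with all its values below those of H3f3a and above those of H2afx. The ranges of H2afx (12.8 FPKM) and H1f0 (11.1 FPKM) overlapped, and H2afy (0.313 FPKM) was last. In Dux KO, H1foo (42.2 FPKM) came next after H2afv and H3f3b, above H2afj (22.4 FPKM) in every pool with no overlap of ranges. Below it H2afj, H3f3a (20.8 FPKM), H2afz (17.7 FPKM), H1f0 (14.2 FPKM) and H2afx (14.1 FPKM) each overlapped with the next, as did H2afv (274 FPKM) with H3f3b (174 FPKM). These levels are per length of merged exons, and the middle of the order rests on that length. Merged exons were 1.66 times as long as the main transcript for H2afz and 1.23 times for H3f3a. Per length of the main transcript, H2afz stood at 32.3 in WT (27.4 to 34.5) and overlapped with H3f3a at 34.2 (29.0 to 42.3), H1foo at 33.2 and H2afj at 31.7. In Dux KO its highest value, 36.5, then also passed the lowest of H1foo, 34.5. H2afv and H3f3b stayed above the rest and H2afy below it on either length.

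Genes around the histone variants were read from the same fit. In that fit 15.5% of all genes were higher and 18.1% lower in Dux KO, with a median log2 difference of -0.02. Over all genes 4182 were called, against 800 without Dux KO replicates 1 and 2 and 3934 without Dux KO replicates 3 and 4. Of 18 other linker and core histone variant genes listed, only Cenpa, the H3 variant of centromeres, was in the gene table. It was abundant and did not pass (105 ± 14.8 FPKM in WT, 102 ± 9.83 FPKM in Dux KO, SD, n = 4). Of 6 replication-dependent histone genes tested, 1 was lower and none higher. That gene, Hist1h4i, encodes histone H4 and fell from 9.90 ± 3.64 to 4.17 ± 1.14 FPKM (SD, n = 4; log2 difference -1.04, limma adjusted p = 0.0134), and was not called without Dux KO replicates 1 and 2. With Dux KO replicates 3 and 4 left out, 1 of the 6 genes was lower and 1 higher. Replication-dependent histone mRNAs mostly lack a poly(A) tail, so the libraries count only part of them.

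Of 9 genes for H3.3 deposition 0 were called by limma and 0 by edgeR, while DESeq2 called 1 lower, and 2 had an unadjusted limma p under 0.05. The list had a median log2 difference of -0.12. Asf1b, a histone H3-H4 chaperone, had 218 ± 33.4 FPKM in WT pools against 171 ± 15.1 FPKM in Dux KO pools (SD, n = 4; limma adjusted p = 0.0983). Dek, which binds chromatin and H3.3, was at 141 ± 12.2 and 146 ± 25.1 FPKM. With quantile normalization, or without WT replicate 3, 1 gene of the list was called lower.

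Of 20 genes for H2A.Z exchange 4 were lower and 1 higher, with a median of -0.14. Actr6, a subunit of the SRCAP complex that loads H2A.Z, fell from 116 ± 17.3 to 59.2 ± 18.1 FPKM (SD, n = 4; log2 difference -0.9996, limma adjusted p = 0.0106). Actl6a, an actin-like subunit of several remodelling complexes, fell by 0.87, and Anp32e, a chaperone that removes H2A.Z, fell by 0.56 on the log2 scale. Ruvbl1, an ATPase of the same complexes and named after its value was seen, fell by 0.54. Ing3, of the TIP60 acetyltransferase complex, rose from 5.18 ± 0.752 to 7.83 ± 1.06 FPKM. Other settings gave up to 6 lower and 2 higher (replicate block, DESeq2). Leaving out single pools gave 3 to 5 lower and 0 to 2 higher, and leaving out both Dux KO replicates 1 and 2 gave 0 and 0. Ing3 was the 1 higher gene with all 8 pools. No gene of the list was called higher without WT replicate 3 or 4 or without Dux KO replicate 1, 2 or 3. Leaving out both Dux KO replicates 3 and 4 gave 4 lower and 2 higher.

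Of 12 genes that act on or with H2A.X, 3 were lower and 1 higher (median -0.25). Prkdc, the catalytic subunit of the DNA-dependent protein kinase, fell from 5.78 ± 0.279 to 2.65 ± 0.344 FPKM (SD, n = 4; log2 difference -0.90, limma adjusted p = 0.00309). Ppp4c, a phosphatase that removes the phosphate from H2A.X, fell by 0.81, and Rnf8, a ubiquitin ligase recruited to DNA breaks, by 0.49 on the log2 scale. Eya1, a tyrosine phosphatase and transcriptional cofactor, rose from 2.37 ± 0.154 to 4.56 ± 0.910 FPKM. Without Dux KO replicates 1 and 2, 1 was lower and 0 higher. Without Dux KO replicates 3 and 4, 2 were lower and 1 higher.

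Of 13 histone storage and assembly chaperones 5 were lower and 1 higher, with a median of -0.47. Nasp, which holds histones H3 and H4 and linker histones, fell from 84.8 ± 12.1 to 44.3 ± 9.87 FPKM (SD, n = 4; log2 difference -0.94, limma adjusted p = 0.00519). Supt16, a subunit of the FACT chaperone, fell by 0.67, and Npm1, a nucleolar chaperone, by 0.60 on the log2 scale, though the values of Npm1 overlapped between the groups. Set and Nap1l4, both named after their values were seen, fell by 0.55 and 0.52. Chaf1b, of the replication-coupled assembly factor CAF-1, rose from 11.9 ± 0.730 to 17.1 ± 2.63 FPKM. The oocyte chaperone Npm2, also named after its value was seen, was at 225 ± 13.5 and 237 ± 13.8 FPKM (SD, n = 4) and did not pass. With quantile normalization 2 were lower and 1 higher, with a median of -0.31, and with the replicate block, by DESeq2 or by the authors' deposited p-values 7 were lower and 1 higher. The list gave 1 lower and 0 higher without WT replicate 3, WT replicate 4, Dux KO replicate 1 or Dux KO replicate 2 in turn. Leaving out both Dux KO replicates 1 and 2 gave 0 and 0, and leaving out both Dux KO replicates 3 and 4 gave 5 lower and 1 higher.

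Of 11 genes tested that process replication-dependent histone mRNA, 3 were lower and none higher (median -0.30). Slbp, which binds the stem-loop of these mRNAs, fell from 54.5 ± 0.259 to 41.5 ± 3.04 FPKM (SD, n = 4; log2 difference -0.39, limma adjusted p = 0.0364). Ncbp1, of the cap-binding complex, fell by 0.69, and Npat, a coactivator of histone gene transcription, by 0.42 on the log2 scale. With quantile normalization 0 were lower and the median was -0.04, and with median-of-ratios scaling 2 were lower. With no minimum level the median over 12 genes was -0.19. The list gave 0 lower without WT replicate 4 or Dux KO replicate 1, 1 lower without WT replicate 1, WT replicate 3 or Dux KO replicate 4. It also gave 0 when both Dux KO replicates 1 and 2 were left out, and 1 lower when both Dux KO replicates 3 and 4 were.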

How the data were processed

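RNA from 4 Dux KO and 4 WT pools was sequenced, with Trimmomatic 0.32, STAR 2.6.1a, SAMtools 1.7 and build GRCm38 (mm10), per the submitters' processing notes. Which counter, annotation, strand setting and test were used is not given in the sources used here. The authors deposited FPKM per gene, a table of repeats whose FPM were read as signal, and in both tables a mean count signal, log2 fold changes and Benjamini-Hochberg adjusted p-values of their own. FPKM of the 9 genes times the length of their merged GENCODE M21 exons gave a constant of 73.93 to 73.95 per normalized count. Steps in the deposited values gave whole reads, 100% of them whole within 0.05. The gene table starts at a mean count of 25.0. Of 13101 identifiers, 13100 were found in GENCODE M21, and the columns left unmapped to a sample numbered 0.

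Groups and replicate numbers came from the sample titles. The 12434 genes averaging 0.5 FPKM or more were tested with limma 3.58.1 in R 4.3.3 on log2(FPKM + 1), with a variance trend and robust moderation, over all 8 libraries with no covariate. A pseudocount of 1 understates changes of low genes. Levels per main transcript are FPKM times the ratio of merged exon length to transcript length. Ratios were tested by exact permutation over 70 splits. Shared sequence was counted as 50-base stretches on both strands of annotated transcripts. The scripts were tested on simulated data. No pools of one group agreed within sampling noise (chi-square per degree of freedom 13.8 to 117). Alternatives were another pseudocount, filters, scalings, a replicate block, limma with neither trend nor robust moderation, the deposited p-values, edgeR 4.0.16 and DESeq2 1.42.0 on recovered reads, and leaving out each library; leaving out pairs of Dux KO libraries was added after seeing the data.

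The members and gene lists were chosen with earlier results of these data known. All 9 members were named, and from each list up to 3 called genes per direction, or with no call its 2 most abundant genes. The rule for genes of like pattern applied only to members that were called, so it named none.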

Additional observations from a re-analysis of the deposited data

Results flagged for a closer look

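H2afj in WT replicate 2 stood at 37.9 FPKM, apart from the other 3 WT pools at 29.4 to 30.1 FPKM. Its gap to the nearest pool was 0.913 of the range of the group, above Dixon's 95% value of 0.829 for 4 samples. It was the only such value among 24 groups of 4 values examined (9 genes and 3 shares in each genotype), where chance gives about 1 group in 20. Without WT replicate 2 the log2 difference of H2afj was -0.41.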

How the results depend on the processing

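H1f0, H2afx and H3f3a kept their direction and their side of the threshold in every alternative run, as did H2afz but for the setting named here. The ratios of H3f3b over H3f3a and H1f0 over H1foo kept their sign, though the first was 0.03 without Dux KO replicate 2, and permutation over so few pools could hardly bring any ratio past the threshold. The count of members called, 0 with all libraries, was 1 at a mean of at least 5 FPKM (H2afj), 1 with quantile normalization (H1foo), 1 with the replicate number as a block (H1foo), 1 by DESeq2 (H2afj), 0 to 1 when single libraries were left out (H2afj without Dux KO replicate 3, H1foo without Dux KO replicate 4) and 2 with both of these left out. The log2 difference of H1foo passed with quantile normalization (0.58, adjusted p = 0.0405), with the replicate block (0.42, adjusted p = 0.0474) and when Dux KO replicates 3 and 4 were left out (0.70), and was 0.32 to 0.54 without single libraries. That of H2afj passed at a mean of at least 5 FPKM (-0.50), by DESeq2 (-0.48) and when Dux KO replicates 3 and 4 were left out (-0.73), and was -0.60 to -0.35 without single libraries. Signs turned for H2afv with quantile normalization (0.11; -0.11 to 0.050 without single libraries), for H2afz without Dux KO replicates 1 and 2 (0.028), for H3f3b without them (-0.30; -0.22 to 0.16 without single libraries) and for the ratio of H2afv over H2afz (-0.011 to 0.155 without single libraries). H2afy was 0.18 on the log2(FPKM + 1) scale, 0.65 in the authors' deposited table and 0.67 by edgeR and by DESeq2, where no pseudocount of 1 enters. The count of genes called, 4182, ranged from 2527 (WT replicate 4 left out, with 2686 for Dux KO replicate 1) to 4045 over single libraries. With Dux KO replicates 1 and 2 left out the count was 800, and with Dux KO replicates 3 and 4 left out it was 3934. It was not settled whether the numbers pair the pools. The correlation of deviations of same-numbered pools was -0.115, 0.328, -0.0554 and 0.302 for replicates 1 to 4. That of other pairs ran from -0.404 (WT replicate 4 with Dux KO replicate 2) to 0.271 (WT replicate 1 with Dux KO replicate 2). The block moved the count of genes called to 4732. At a mean of at least 5 FPKM, only 4 of the 12 H2A.X genes were tested, with 1 lower and 0 higher. Causes were not tested. Counting error was at most 7.78% of a value for the members tested.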
